A study of Mus musculus with 18 samples.

Results

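Differentiated mouse cells (ED) were compared with the embryonic stem cells they came from (ES), both unirradiated, on 6 of the 18 arrays of the series, 3 for each cell type. The arrays were taken by their labels, with no measured value in the choice. ES were primary embryonic stem cells of early passage, kept on gelatin without feeder cells in medium with leukemia inhibitory factor (LIF), the cytokine that holds mouse stem cells undifferentiated. ED were isogenic cells from which LIF had been withdrawn for 1 week, or for as long as it took the stem cell markers to disappear. The methods of the study add beta-mercaptoethanol to what was withdrawn and name no factor that would steer the cells to a lineage, so ED is an undirected and possibly mixed population. Neither group had any other treatment. The remaining 12 arrays hold both cell types after 10 Gy of ionizing radiation, collected at 15 min as ESRE and EDRE and at 4 h as ESRL and EDRL, and are used here for the shared estimate of the spread, for the scan time and to see whether the cell type difference recurs. The labels do not say that the 3 samples of a group were separate cultures, so p-values measure the spread between these samples, which may be technical.

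Mouse stem cells in LIF rest on a network of transcription factors, among them Oct4 (Pou5f1), Sox2, Nanog, Esrrb and Klf factors, that hold each other active and keep lineage genes low. They grow as compact epithelial colonies joined by E-cadherin. When LIF is withdrawn the network comes apart, and cells that leave it can pass through an epiblast state toward the germ layers, or lose E-cadherin and become mesenchymal, with a matrix of fibrillar collagens.

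The promoters of 4 genes are shown for the kind of gene at either end of the comparison. The sequences are from RefSeq on the GRCm38.p6 build and run from 250 bases before the transcription start to 50 after it, and are written 5′ to 3′ on the strand of the gene. Zfp42 (Rex1) and Fgf4, a transcription factor and a growth factor of undifferentiated cells, were bright in ES and near or below background in ED. S100a4, a calcium-binding protein of motile and fibroblastic cells, and Mmp3, a secreted protease that cleaves matrix proteins, were higher in ED. Capitals mark the motifs searched on both strands, which were the TATA box TATAAA, the CCAAT box, the GC box GGGCGG, the octamer ATTTGCAT bound by Oct factors and the AP-1 site TGANTCA. The Zfp42 window is chr8:43306960-43307259 on the minus strand.
Zfp42: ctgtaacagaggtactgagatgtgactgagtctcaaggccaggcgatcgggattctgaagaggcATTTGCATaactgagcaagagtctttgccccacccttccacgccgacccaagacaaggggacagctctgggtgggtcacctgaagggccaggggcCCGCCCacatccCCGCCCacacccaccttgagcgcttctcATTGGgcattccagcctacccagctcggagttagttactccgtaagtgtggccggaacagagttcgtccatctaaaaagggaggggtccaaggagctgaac
The Fgf4 window is chr7:144861136-144861435 on the plus strand.
Fgf4: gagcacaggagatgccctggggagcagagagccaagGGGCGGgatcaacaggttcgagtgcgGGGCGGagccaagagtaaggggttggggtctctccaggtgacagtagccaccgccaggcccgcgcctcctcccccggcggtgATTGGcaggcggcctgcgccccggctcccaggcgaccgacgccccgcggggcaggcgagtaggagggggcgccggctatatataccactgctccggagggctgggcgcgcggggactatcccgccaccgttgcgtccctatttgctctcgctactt
The S100a4 window is chr3:90603520-90603819 on the plus strand.
S100a4: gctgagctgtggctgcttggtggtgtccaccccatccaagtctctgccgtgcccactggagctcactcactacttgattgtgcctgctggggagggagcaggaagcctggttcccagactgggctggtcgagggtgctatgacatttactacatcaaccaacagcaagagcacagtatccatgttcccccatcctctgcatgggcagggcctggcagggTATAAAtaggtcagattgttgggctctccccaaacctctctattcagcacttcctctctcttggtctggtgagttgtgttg
The Mmp3 window is chr9:7445572-7445871 on the plus strand.
Mmp3: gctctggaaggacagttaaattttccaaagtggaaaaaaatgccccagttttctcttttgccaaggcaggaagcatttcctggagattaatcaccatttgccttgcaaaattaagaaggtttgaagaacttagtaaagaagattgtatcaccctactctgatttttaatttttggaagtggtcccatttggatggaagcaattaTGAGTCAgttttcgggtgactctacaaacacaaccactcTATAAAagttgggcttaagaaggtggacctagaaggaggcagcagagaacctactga
The Zfp42 window held 1 octamer, 1 CCAAT box and 2 GC boxes, and that of Fgf4 held 1 CCAAT box and 2 GC boxes. The S100a4 window held 1 TATA box, and that of Mmp3 held 1 TATA box and 1 AP-1 site. Of the windows of 27025 genes, 14.2% held the TATA box, 37.9% the CCAAT box, 35.9% the GC box, 1.75% the octamer and 7.93% the AP-1 site. The windows hold 11 CpG dinucleotides for Zfp42, 28 for Fgf4, 2 for S100a4 and 1 for Mmp3. A match is a run of letters and not a site shown to be bound. Windows could be matched to only 47.2% of the genes tested, so that groups of genes were not compared for motifs or base composition.

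RNA was measured on Agilent arrays with Cy3 as the only dye, and a level is the log2 signal of a probe over the 75th percentile of that array. That percentile lay between 2913.6 and 4268.3 signal units on the 6 arrays. Probes well above background made up 72.1% to 77.9% on ED arrays and 81.4% to 86.1% on ES arrays, and precision is limited by how few arrays there are. Replicates correlated with r between 0.986 and 0.995 over probes, and ED with ES arrays between 0.804 and 0.821. The median SD between replicates was 0.194 in ED and 0.133 in ES on the log2 scale. To be counted, a gene needed a probe with a limma adjusted p under 0.05, fitted over all 18 arrays, and a change over 2-fold. Among the 26228 genes tested this left 14.9% higher in ED, 26.7% lower and 41.5% in either direction, and these shares stand behind every count of members below. The changes were large: 1897 genes rose and 4482 fell by over 4-fold, and 154 rose and 780 fell by over 64-fold. The median of all genes was -0.19 on the log2 scale, but 0.46 with arrays scaled to their median and 0.23 after quantile normalization. Median scaling counts 26.6% of genes higher and 18.6% lower, and quantile normalization 21.6% and 20.4%, so lists whose median changes sign are given with these alternatives. In bulk RNA, fewer cells of a kind and less RNA per cell cannot be told apart.

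**Figure D1:**
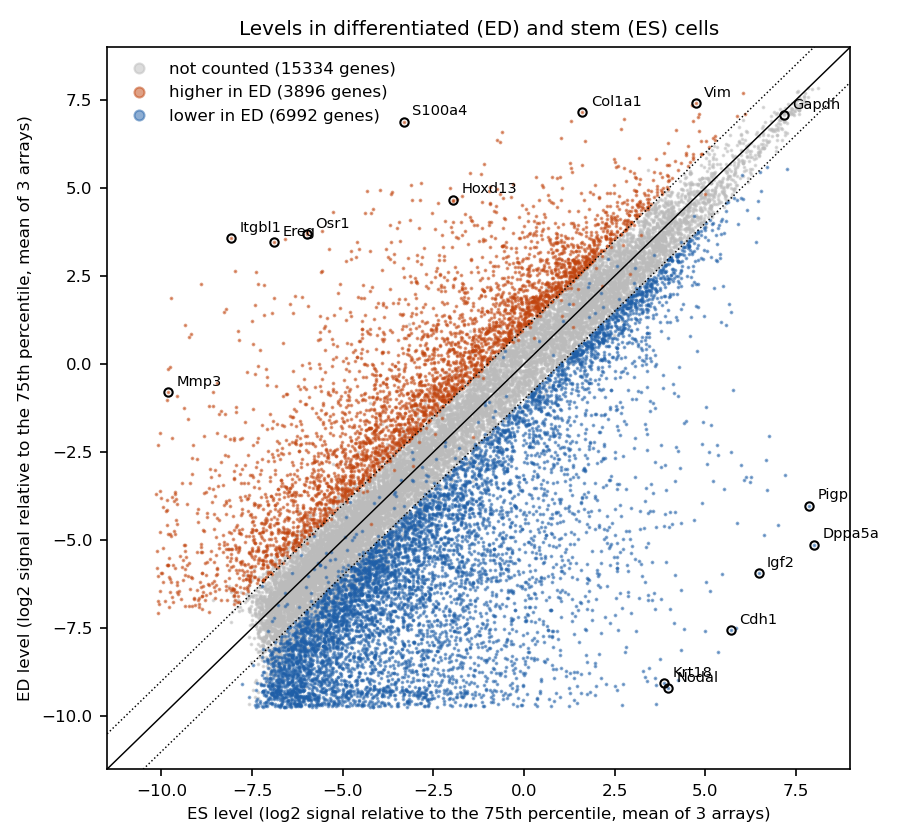
Mean level of each gene tested in ES (horizontal axis) and ED (vertical axis), in log2 signal scaled to the 75th percentile, 3 arrays each. Red genes were counted higher in ED, blue genes lower and gray genes neither, and 6 genes counted in both directions are not drawn. The solid line is equality, the dotted lines are 2-fold, and values near the lower left edges are not well above background. S100a4, Osr1 and Ereg lie far above the line and Dppa5a, Pigp, Igf2 and Cdh1 far below it, while Gapdh lies on it.

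The transcription factors and marker genes of naive pluripotency were almost all lower in ED. Of 18 members tested 17 fell and 0 rose, with a median log2 change of -9.25, or -8.83 with the 2 members that were not well above background on any ED array set at their bound. Esrrb, a nuclear receptor that binds beside Oct4 and Nanog, had levels of 5.47, 5.22 and 5.29 on the ES arrays and -2.26, -2.39 and -2.21 on the ED arrays. The groups lie far apart and each is tight. Its log2 change was -7.62 ± 0.19 (SE), adjusted p = 3.35e-13. Utf1, a chromatin protein of undifferentiated cells, had 5.93, 5.81 and 5.90 in ES against -5.35, -3.21 and -4.94 in ED. The ED arrays spread over more than 2 units here, yet stay well under every ES array, and the change was -10.38 ± 0.39 (adjusted p = 1.52e-11). Sall4, a zinc finger partner of Oct4, fell by 7.24 on the log2 scale, Tbx3 by 2.93, Klf2 by 3.59 and Lin28a, which blocks maturation of let-7, by 4.13.

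Some members of that list ended below detection in ED. Tcl1, a coactivator of Akt, had 3.78, 3.51 and 3.65 in ES and was not well above background on any ED array, so it fell by at least 2176-fold (adjusted p = 2.44e-12). Fgf4 had 4.20 and 4.48 in the 2 usable ES arrays and was above background on 1 of 3 ED arrays, with a fitted change of -12.46 ± 0.92 (adjusted p = 6.02e-07). The spots of Zfp42 were marked as outliers on all 3 ES arrays, and with such spots kept its ES levels were 6.33, 5.89 and 5.89, against no ED array above background (adjusted p = 1.72e-12). Sox2 fell but stayed well above background on all 3 ED arrays, at 2.21, 2.31 and 2.43 against 4.67, 4.69 and 4.69 in ES, a change of -2.37 ± 0.25. Klf4 was the only member tested that was not counted. This factor, which LIF induces through Stat3 and which fibroblasts and epithelia also use, had 3.81, 3.80 and 3.92 in ES and 3.64, 3.92 and 4.11 in ED. Its groups overlap, and the change of 0.05 ± 0.23 did not pass the test (adjusted p = 0.898). The related Klf5, usable only with outlier spots kept, fell by 2.65 on the log2 scale.

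Genes of the primed epiblast, the state that follows naive pluripotency, were not higher in ED either. Of 10 tested, 9 were lower and 0 higher (median -6.36, or -5.53 with 3 members at their bound). Otx2, a homeobox factor that drives exit to the primed state, had 2.53, 2.10 and 2.17 in ES and was not well above background in ED, a fall of at least 837-fold (adjusted p = 9.6e-10). Fgf5, the classic epiblast growth factor, fell by at least 90.3-fold (adjusted p = 5.03e-08). Dnmt3b, a de novo DNA methyltransferase, had 3.72 and 3.81 on its 2 usable ES arrays and -2.08, -2.31 and -2.54 in ED, without overlap, and changed by -6.08 ± 0.24 (adjusted p = 2.26e-10). Tead2, a partner of the Yap coactivator, changed by -0.81, short of 2-fold.

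**Figure D2:**
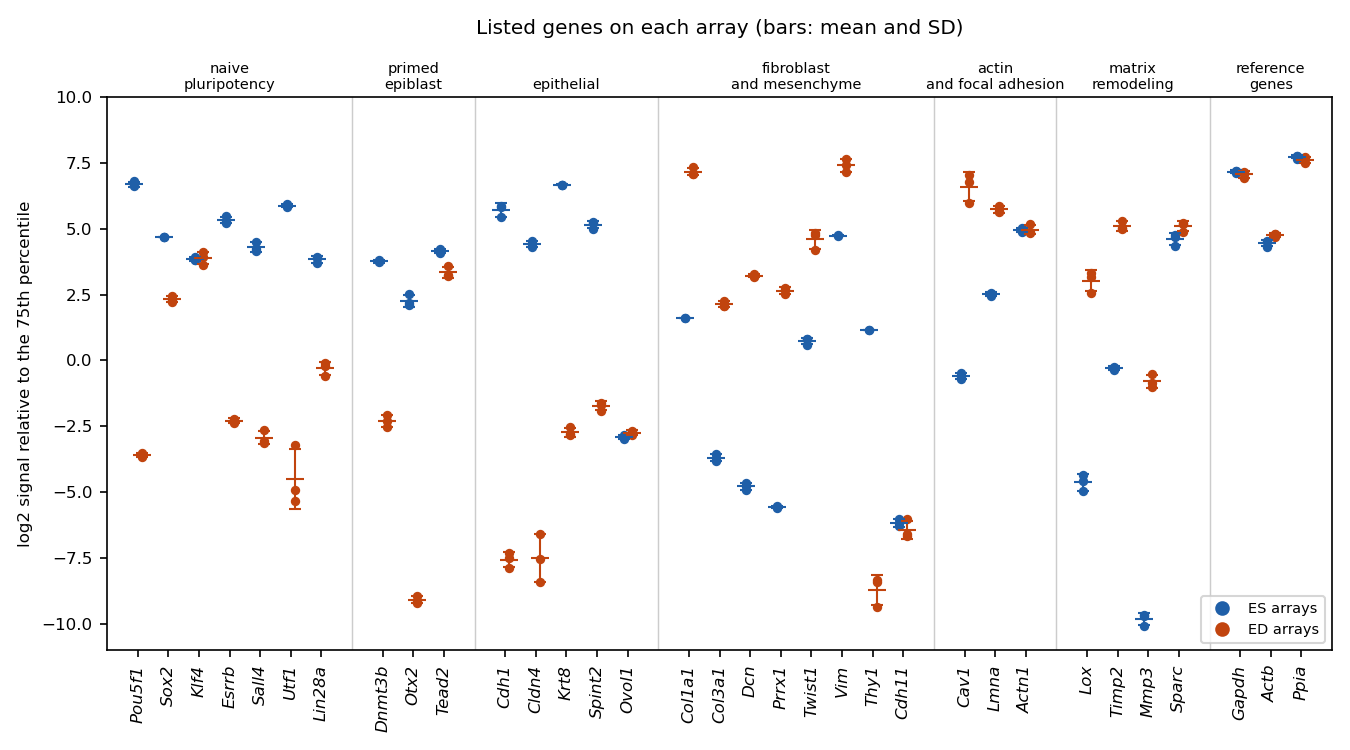
Level of listed genes on each array (vertical axis, log2 signal relative to the 75th percentile), ES in blue and ED in red, with the mean and SD of each group of up to 3 arrays. Pou5f1, Esrrb, Utf1, Cdh1 and Krt8 sit high in ES and low in ED, Col1a1, Dcn, Prrx1, Cav1 and Lox the other way, and Klf4, Ovol1, Cdh11, Actn1, Gapdh, Actb and Ppia lie close together in both.

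The epithelial genes fell with the pluripotency genes. Of 16 tested, 15 were lower and 0 higher, with a median of -7.99. Cdh1, which encodes E-cadherin, had 5.88, 5.43 and 5.82 in ES and -7.30, -7.49 and -7.90 in ED, where 1 of 3 arrays was above background. Its fitted change of -13.27 ± 0.70 (adjusted p = 5.74e-10) lies among the greatest of the listed genes. Krt8, a simple epithelial keratin, had 6.66, 6.64 and 6.67 in ES and -2.80, -2.85 and -2.54 in ED. The keratin stayed measurable on every ED array, at a change of -9.39 ± 0.19 (adjusted p = 8.41e-14), while its partner Krt18 dropped below background and fell by at least 2533-fold (adjusted p = 3.62e-09). The adhesion molecule Epcam fell by at least 750-fold and the tight junction protein occludin (Ocln) by at least 24.9-fold. The claudins Cldn3, Cldn4, Cldn6 and Cldn7, which seal tight junctions, changed by -7.85, -11.94, -6.64 and -10.08, with Cldn4 above background on 2 of 3 ED arrays. Esrp1, which sets epithelial splicing, changed by -9.24, with 1 ED array above background, and the epithelial regulator Grhl2 by -7.94. Ovol1, another epithelial transcription factor, had a change of 0.15 and was not counted. Over all keratin genes, a family picked after its values were seen, 20 of 35 tested were lower and 0 higher (median -1.87).

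Fibroblast and mesenchyme genes had the greatest share of rises of the lists examined, 21 of 24 tested, with 1 fall and a median of 3.88. The fibrillar collagens of the list that could be tested, Col1a1, Col1a2, Col3a1 and Col5a1, were all higher, the second by 5.91 and the last by 1.79. Col1a1 had 1.61 and 1.62 on its 2 usable ES arrays and 7.08, 7.08 and 7.33 in ED. Col3a1 had -3.57, -3.81 and -3.69 in ES and 2.25, 2.08 and 2.08 in ED. No array of either group comes near those of the other, and the changes were 5.55 ± 0.20 (adjusted p = 1.28e-09) and 5.82 ± 0.41 (adjusted p = 6.43e-08). Decorin (Dcn), a proteoglycan that binds collagen fibrils, had -4.77, -4.92 and -4.64 in ES against 3.16, 3.21 and 3.27 in ED. Its rise of 7.99 ± 0.30 (adjusted p = 5.22e-11) was close to that of Prrx1, a homeobox factor of limb and stromal mesenchyme, which rose by 8.21 ± 0.20 (adjusted p = 3.75e-12). Vimentin (Vim), Pdgfra and Pdgfrb rose by 2.67, 3.87 and 2.99.

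The fibroblast list also holds Twist1, Twist2, Snai2, Zeb1 and Zeb2, transcription factors known for the epithelial to mesenchymal transition, and each of these was higher in ED. Twist1 had 0.80, 0.80 and 0.60 in ES and 4.18, 4.76 and 4.82 in ED, a change of 3.85 ± 0.18 (adjusted p = 1.22e-09). Twist2 rose by 5.14, Snai2 by 4.67 and Zeb1 by 2.53. Zeb2 was not well above background on any ES array and rose by at least 8.01-fold (adjusted p = 8.15e-06). N-cadherin (Cdh2) rose by 3.24 ± 1.13, with an adjusted p of 0.0394 that stands near the limit. Thy1, a surface glycoprotein of many fibroblasts, went against the list. It had 1.16 and 1.15 on 2 usable ES arrays, was not well above background in ED and fell by at least 387-fold (adjusted p = 4.18e-08). Periostin (Postn, 0.79) and Cdh11 (-0.27) were not counted. Of the listed genes with no usable spot in a group, fibronectin (Fn1) had a change of 1.05 (adjusted p = 0.0321) with outlier spots kept.

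In the matrix remodeling list 7 of 16 tested rose and 2 fell (median 0.71). Lysyl oxidase (Lox), which cross-links collagen, had -4.97, -4.35 and -4.57 in ES and 3.33, 3.18 and 2.57 in ED, and rose by 7.66 ± 0.52 (adjusted p = 9.59e-09). Mmp3 had -1.01, -0.87 and -0.52 in ED and was not well above background in ES, a rise of at least 131-fold (adjusted p = 5.9e-11). The protease inhibitors Timp2 and Timp3 rose by 5.41 and 4.34, the latter with 1 usable ES array. The gelatinase Mmp9 fell by 2.67 on the log2 scale. Thrombospondin 1 (Thbs1), tenascin C (Tnc), Ccn1 and Ccn2, which TGF-beta and Yap induce, had changes of -0.27, -0.45, -0.40 and -0.74 and were not counted. In the collagen modification list 5 of 12 rose and 0 fell (median 0.80). P4ha3, a prolyl hydroxylase subunit, rose by 5.71 and Pcolce, which speeds procollagen cleavage, by 2.80, while P4ha1 (0.92), P4hb (0.40) and Plod1 (0.25) were not counted. The collagen family itself, taken after its values were seen, held 11 higher and 13 lower genes of 33 tested, with a median of -0.15 that turns to 0.49 with median scaling and to 0.14 after quantile normalization. Its lower members include Col18a1 (-3.64) and Col9a2 (-6.62), the first a basement membrane collagen and the second one of cartilage.

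Actin, adhesion and caveolar genes rose in 10 of 16 tested, with 0 lower (median 1.43). Caveolin 1 (Cav1), the scaffold of caveolae, had -0.72, -0.47 and -0.62 in ES and 5.98, 6.79 and 7.05 in ED. The ED arrays spread by about 1 unit and lie far above ES, a change of 7.21 ± 0.24 (adjusted p = 4.3e-11). Cav2 rose by 6.77, Ahnak by 4.27 and lamin A/C (Lmna), which stiffens the nuclear envelope, by 3.21. The actin-binding proteins Flna and Vcl rose by 1.20 and 1.65, whereas Actn1 (0.01), Actn4 (-0.02) and paxillin (Pxn, -0.07) were not counted. Pdlim7 was counted as higher through its dimmer probe (1.11), although its brighter probe read -0.65. Integrins had 2 higher and 4 lower of 15 tested, close to the shares over all genes, and a median of -0.33 that turns to 0.31 with median scaling and 0.33 after quantile normalization. Itgav rose by 1.59 and Itga9 fell by 4.28 on the log2 scale.

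In the TGF-beta and BMP list 10 of 17 tested were higher and 1 lower (median 1.62). Tgfb3, a ligand, had -3.29, -3.33 and -3.48 in ES and 1.26, 1.33 and 1.55 in ED, and rose by 4.75 ± 0.15 (adjusted p = 2.6e-11). The ligands Inhba and Bmp2 rose by 4.52 and 3.42, the receptors Tgfbr1, Tgfbr2 and Tgfbr3 by 1.62, 3.72 and 3.57, and the latent TGF-beta binding protein Ltbp2 by 4.86. Follistatin (Fst), which traps activin, rose by 5.99. Nodal, the ligand of the early embryo that signals through the activin receptors, was the 1 fall. It had 4.04, 3.95 and 3.95 in ES and was not well above background in ED, which puts the fall at 2739-fold or more (adjusted p = 2.18e-11). Targets of BMP signaling were not higher: Id1 (-0.94) and Id3 (0.49) were not counted, and Id2, with outlier spots kept, changed by -2.50 (adjusted p = 9.64e-05).

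**Figure D3:**
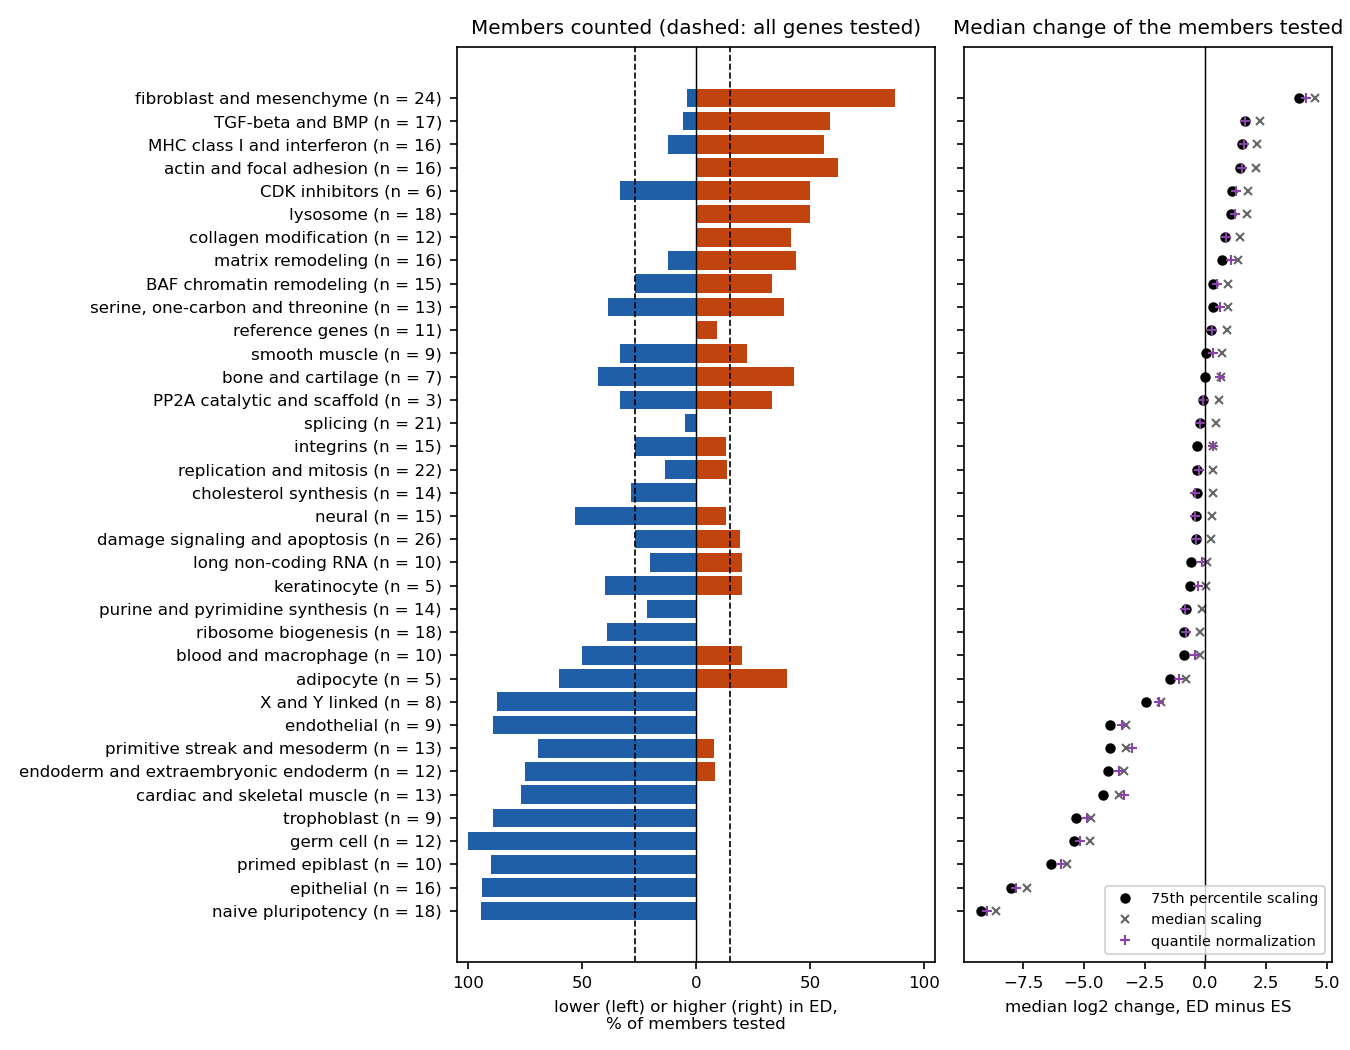
Left, share of the members tested of each list that were lower (blue) or higher (red) in ED, in percent, with dashed lines at the shares over all genes tested, 26.7% and 14.9%. Right, median log2 change (ED minus ES) of each list with 3 ways of scaling the arrays, the fibroblast list at 3.88 and the naive pluripotency list at -9.25 with the 75th percentile. Lists in the middle change sign with the scaling.

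Markers of other cell types that ED could hold were mostly lower in ED than in ES rather than higher. In the primitive streak and mesoderm list 9 of 13 tested were lower and 1, Pdgfra, higher (median -3.91, or -2.82 at the bounds). Brachyury (T) had -1.37, -1.67 and -1.39 in ES and -9.13, -9.45 and -5.29 in ED, where 1 array was above background, a change of -6.48 ± 0.90 (adjusted p = 3.22e-05). The ED array that stands out is the third. In the endoderm list 9 of 12 fell and 1 rose (median -4.01, or -3.04 at the bounds): the forkhead factor Foxa1 changed by -4.79, Hnf4a by -4.02, and Dab2, an endocytic adaptor that fibroblasts also express, rose by 2.06. Of 9 trophoblast genes 8 were lower (median -5.34, or -4.18 at the bounds), among them Cdx2, by at least 11.2-fold, and Ascl2 (-6.72). Of 15 neural genes 8 were lower and 2 higher, with a median of -0.38 that turns to 0.26 with median scaling. That scaling counts 4 lower and 4 higher, and quantile normalization and scan time as a random block each count 4 lower and 2 higher. Dcx and Gfap were counted as lower and Ncam1 as higher only through a dimmer probe, while their brightest probes read -0.30, 0.21 and 0.73. The microtubule proteins of neurons split, since Mapt fell by 7.62 on the log2 scale and Map2 rose by 1.82, while Nes (0.55), Tubb3 (-0.38) and Sox1 (0.73) were not counted.

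Among markers of formed tissues, those of heart, skeletal muscle and endothelium gave the same picture, while the other lists were mixed. Cardiac and skeletal muscle genes were lower in 10 of 13 tested and higher in 0 (median -4.19, or -3.30 at the bounds), with Actc1 at -4.27 and Acta1 at -6.76. Endothelial genes were lower in 8 of 9 (median -3.91), with Tek at -4.64 and Cdh5 at -4.24. In the blood and macrophage list 5 of 10 were lower and 2 higher (median -0.88), or 2 lower and 1 higher with scan time as a random block. Cd14, a co-receptor for lipopolysaccharide, had -4.05, -4.12 and -4.08 in ES and 0.47, 0.37 and 0.48 in ED, and rose by 4.52 ± 0.12 (adjusted p = 7.23e-12). The pan-leukocyte gene Ptprc was not well above background in either group, Csf1r fell by 8.29 on the log2 scale with 1 ED array above background, and Itgam and Adgre1 fell by at least 2.50-fold and 3.01-fold. Smooth muscle genes were mixed, 2 higher and 3 lower of 9 (median 0.05, or 0.69 with median scaling): Acta2 rose by 1.13 and Mylk by 3.29, Myh11 fell by 3.80 and Tagln by 2.81 on the log2 scale, the last with 1 usable ES array, and Cnn1 was not well above background in either group. Of 5 keratinocyte genes 1 was higher (Trp63, 1.24) and 2 lower, with a median of -0.62 that becomes 0.02 with median scaling.

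Genes of the skeletal and fat lineages had members at both ends. Runx2, the master regulator of bone-forming cells, had -3.56, -3.67 and -3.51 in ES and 2.95, 3.13 and 3.33 in ED. It rose by 6.72 ± 0.30 (adjusted p = 9.01e-10), Sox9 by 2.31 and osteopontin (Spp1) by 2.28. The other skeletal genes of the list did not follow. Alkaline phosphatase (Alpl), which stem cells also express, fell by at least 95.2-fold, aggrecan (Acan) by at least 39-fold and Col2a1 by 3.28 on the log2 scale, while Sp7 (-0.02) was not counted and Ibsp was not well above background in either group. The median of these 7 genes, -0.02, turns to 0.63 with median scaling and 0.59 after quantile normalization. Of 5 fat cell genes 2 were higher and 3 lower: Fabp4 rose by at least 56.8-fold (adjusted p = 2.76e-06) and Cebpa by 1.05, while Pparg fell by 1.46 and Lpl by 2.74 on the log2 scale, Adipoq fell by at least 2.88-fold, and Plin1 was not well above background in either group.

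Germ cell genes, which are active in naive stem cells at low methylation, were all lower in ED, 12 of 12 tested, with a median of -5.41. Dppa3 (Stella) had 2.60, 2.73 and 2.83 in ES and was not well above background in ED, a fall of 1142-fold or more (adjusted p = 2.07e-11). Mael, which guards the germline against transposons, had 3.24, 3.19 and 3.33 in ES and -6.28, -5.94 and -5.84 in ED. Its change was -9.27 ± 0.34 (adjusted p = 1.16e-11), and the meiotic genes Sycp1, Sycp3 and Hormad1 changed by -6.49, -5.74 and -5.09, Sycp3 with 1 usable ES array.

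Antigen presentation and interferon genes rose in 9 of 16 tested and fell in 2 (median 1.50). Beta-2 microglobulin (B2m), the light chain of MHC class I, had 2.57, 2.50 and 2.34 in ES and 5.63, 5.96 and 5.91 in ED, a rise of 3.37 ± 0.30 (adjusted p = 2.13e-07). The heavy chains H2-K1 and H2-D1 rose by 1.71 and 1.85, and probes of these near-identical genes may share signal. The interferon-induced genes Ifit1, Ifit3, Isg15 and Irf7 rose by 4.02, 3.53, 3.14 and 3.43. Irf1 (-0.92) and Bst2 (0.01) were not counted, and the proteasome subunit Psmb8 and the membrane protein Ifitm1, which stem cells carry, fell by 1.36 and 2.40 on the log2 scale. Lysosome genes rose in 9 of 18 tested and fell in 0 (median 1.07): the collagen-degrading cathepsin Ctsk rose by 2.97, the tetraspanin Cd63 by 2.39, with 1 usable ES array, and Lamp2 by 2.06, while Lamp1 (0.36) was not counted.

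Genes of serine, one-carbon and threonine metabolism were found in both directions, with 5 of 13 tested higher and 5 lower (median 0.30), or 6 higher and 2 lower with median scaling (median 0.95). Threonine dehydrogenase (Tdh), which feeds mouse stem cells with glycine and acetyl-CoA from threonine, had 5.11, 4.96 and 5.01 in ES and -6.71, -6.83 and -5.04 in ED. The change was -11.22 ± 0.36 (adjusted p = 3.42e-12). Glycine decarboxylase (Gldc) had 5.55, 5.54 and 5.48 in ES and -3.48, -3.51 and -3.62 in ED, a change of -9.06 ± 0.33 (adjusted p = 1.12e-11). Shmt2, the mitochondrial serine hydroxymethyltransferase, rose by 2.78 while the cytosolic Shmt1 fell by 1.54 on the log2 scale. Phgdh and Psph of serine synthesis rose by 2.38 and 1.34, the first with 1 usable ES array, and the mitochondrial folate enzymes Mthfd2 and Mthfd1l by 1.41 and 1.28. Purine and pyrimidine enzymes had 3 lower and 0 higher of 14 (median -0.78), with Gart at -2.40 and Cad at -1.08. In cholesterol synthesis 4 of 14 were lower and 0 higher, and the median of -0.35 turns to 0.30 with median scaling. Among them were Hmgcs1 (-1.35), Mvd (-1.66) and Dhcr7 (-1.34).

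Ribosome biogenesis genes were lower in 7 of 18 tested and higher in 0 (median -0.87), but with median scaling 1 was lower. Rcl1, a processing factor, fell by 2.05 on the log2 scale and Nop2, which methylates rRNA, by 1.19, while Npm1 (-0.24) and Dkc1 (-0.61) were not counted. Splicing factors were the steadiest of the larger lists. Of 21 tested 1 was counted, Snrpn (-2.49), an imprinted gene of the spliceosome, and the median of -0.21 turns to 0.43 with median scaling. Among 11 reference genes 1 was counted, Gusb (1.31), and the median was 0.23, or 0.88 with median scaling. Gapdh (-0.10), Ppia (-0.10) and Actb (0.30) differed by less than 2-fold.

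Subunits of the BAF chromatin remodeler changed in opposite directions, 5 higher and 4 lower of 15 (median 0.30), or 7 and 2 with median scaling (median 0.94). With scan time as a random block 2 were higher and 2 lower. Smarca2, the ATPase that can replace Smarca4, had -1.96, -1.97 and -1.91 in ES and 1.07, 0.80 and 0.74 in ED, a rise of 2.81 ± 0.17 (adjusted p = 1.68e-08). Smarcc2, with 1 usable ES array, rose by 2.79 and Smarcd3 by 1.57, whereas Smarcd1 fell by 1.68 on the log2 scale. Actl6a, a subunit of progenitor cells, had levels between 4.86 and 5.03 in ES and 3.15, 3.31 and 3.23 in ED. It fell by 1.73 on the log2 scale (SE 0.16, adjusted p = 2.54e-06), while Smarcc1 (-0.99), known for its place in the stem cell complex, stayed just inside 2-fold. Smarcd2 rose by 1.57, but changed by -0.14 against the 1 irradiated ES array that was scanned with ED.

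Few genes of the cell division machinery differed. The replication and mitosis list had 3 rises and 3 falls among 22 genes, and its median of -0.33 turns to 0.31 with median scaling, where 7 are higher and 1 lower. Ccnd2, a D-type cyclin of the kind that answers to growth factors, had 0.53, 0.86 and 0.69 in ES and 4.67, 4.68 and 4.66 in ED, a rise of 3.98 ± 0.18 (adjusted p = 1e-09), and Ccnd1 rose by 3.29. Ccnd3, which is in no list and was looked up after the others were seen, fell by 1.91 on the log2 scale (adjusted p = 0.000289), with 2 usable arrays in each group. Ccne1, the cyclin that stem cells express throughout the cycle, had 4.66, 4.56 and 4.60 in ES and 1.20, 1.29 and 1.53 in ED. It fell by 3.27 on the log2 scale (SE 0.27, adjusted p = 8.6e-08). Pcna (-0.02), Mcm4 (-0.07) and Top2a (-0.39) were not counted, and Mki67 rose by 1.02. Of 6 inhibitors of cyclin-dependent kinases 3 rose and 2 fell (median 1.12). Cdkn2c (p18) had -0.82, -0.93 and -1.07 in ES and 3.28, 3.41 and 3.29 in ED, a rise of 4.26 ± 0.27 (adjusted p = 4.06e-09), and Cdkn1b (p27), with 1 usable ES array, rose too (adjusted p = 1.38e-06). Cdkn1c (p57), an imprinted gene, fell by 8.22 on the log2 scale, also with 1 usable ES array, and Cdkn1a (p21) had a change of 0.80 and was not counted.

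Damage signaling and apoptosis genes, which the study is about, had 5 higher and 7 lower of 26 tested, close to the shares over all genes, and the median of -0.39 turns to 0.25 with median scaling, where 9 are higher and 2 lower. Pmaip1 (Noxa), a p53 target that disables Mcl1, fell below background. Its 1 usable ES array read 2.52, no ED array was well above background, and the adjusted p was 4.84e-12. Mcl1, a survival factor, had 5.45, 5.19 and 5.44 in ES and 3.86, 3.77 and 3.94 in ED, and fell by 1.50 on the log2 scale (SE 0.16, adjusted p = 1.25e-05). The initiator caspase Casp8 rose by 2.62. The repair and checkpoint genes Brca1 (-1.09), Xrcc5 (-1.19), Mdm2 (-1.10) and Chek2 (-1.72) fell, and Chek1 (0.36), Atr (-0.49), Prkdc (-0.73) and Xrcc6 (-0.29) were not counted. With outlier spots kept, the damage kinase gene Atm rose by 2.48 (adjusted p = 0.0109) and the inflammatory caspase gene Casp4 by 5.73 (adjusted p = 2.29e-06). Trp53 was counted as lower through its dimmer probe (-1.29), while the brighter one read 0.48. Of the PP2A core genes, Ppp2ca, a catalytic subunit, had 2.26 and 2.32 on 2 usable ES arrays and 3.21, 3.31 and 3.52 in ED. Its rise of 1.06 ± 0.31 (adjusted p = 0.0135) had an adjusted p of 0.135 with scan time as a random block. The change was -0.15 against ESRE replicate 3, the irradiated stem cell array that was scanned with ED. It was -0.29 between the cell types 15 min after IR and 0.19 at 4 h. The other catalytic gene Ppp2cb had a change of -0.09, and the scaffold gene Ppp2r1b fell by 1.29 on the log2 scale. With median scaling or with scan time as a random block, no PP2A core gene was counted as lower. Quantile normalization and normexp background correction each still counted 1.

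Several gene families whose members lie together on a chromosome were looked at after their values had been seen, and the part of position was not tested. Of the Hoxd genes, which pattern limbs and the trunk, 8 of 9 tested were higher and 1 lower (median 4.77). Hoxd13, the last gene of its cluster and active in the distal limb, had -1.85, -1.95 and -2.09 in ES and 4.72, 4.62 and 4.67 in ED. It rose by 6.64 ± 0.15 (adjusted p = 1.8e-12), Hoxd12 by 8.04 and Hoxd11 by 6.17, and Hoxd10 by at least 28.5-fold. Hoxd1, at the other end, fell by 3.74 on the log2 scale with 1 ED array above background. Of 10 Hoxa genes 8 were higher and 1 lower (median 2.34), with Hoxa7 at 5.48 and Hoxa10 at 5.29. The remaining clusters differed from these. Hoxb had 3 higher and 4 lower of 10, with a median of -0.33 that turns to 0.31 with median scaling and 0.17 after quantile normalization. Hoxc had 0 higher and 3 lower of 8 (median -0.86). The last genes of both fell below background in ED, Hoxb13 by at least 56.7-fold and Hoxc13 by at least 54.0-fold.

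The clustered protocadherins, adhesion proteins that give cells a surface identity, also differed from group to group. Of 18 Pcdhb genes 12 were higher and 0 lower (median 3.15, or 2.99 at the bounds). Pcdhb17 had -5.50, -5.25 and -5.18 in ES and -0.09, -0.05 and -0.07 in ED, a rise of 5.24 ± 0.44 (adjusted p = 2.1e-07), and Pcdhb20 rose by at least 55.7-fold. Of 11 Pcdhg genes 10 were higher, by 1.48 to 1.89, and 0 lower. With scan time as a random block, however, only Pcdhga6 kept an adjusted p under 0.05 (0.0414). The other Pcdhg genes then had adjusted p between 0.116 and 0.451. Of 14 Pcdha genes 4 were lower and 0 higher, near the 26.7% lower among all genes tested. Their median of -0.66 becomes -0.02 with median scaling and -0.05 after quantile normalization. With scan time as a random block only Pcdha11 of the 14 had an adjusted p under 0.05 (0.0101). Genes within each of the last pair of groups share constant exons and may share signal, and the Pcdhg probes read nearly the same levels, so the count of genes is uncertain.

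**Figure D4:**
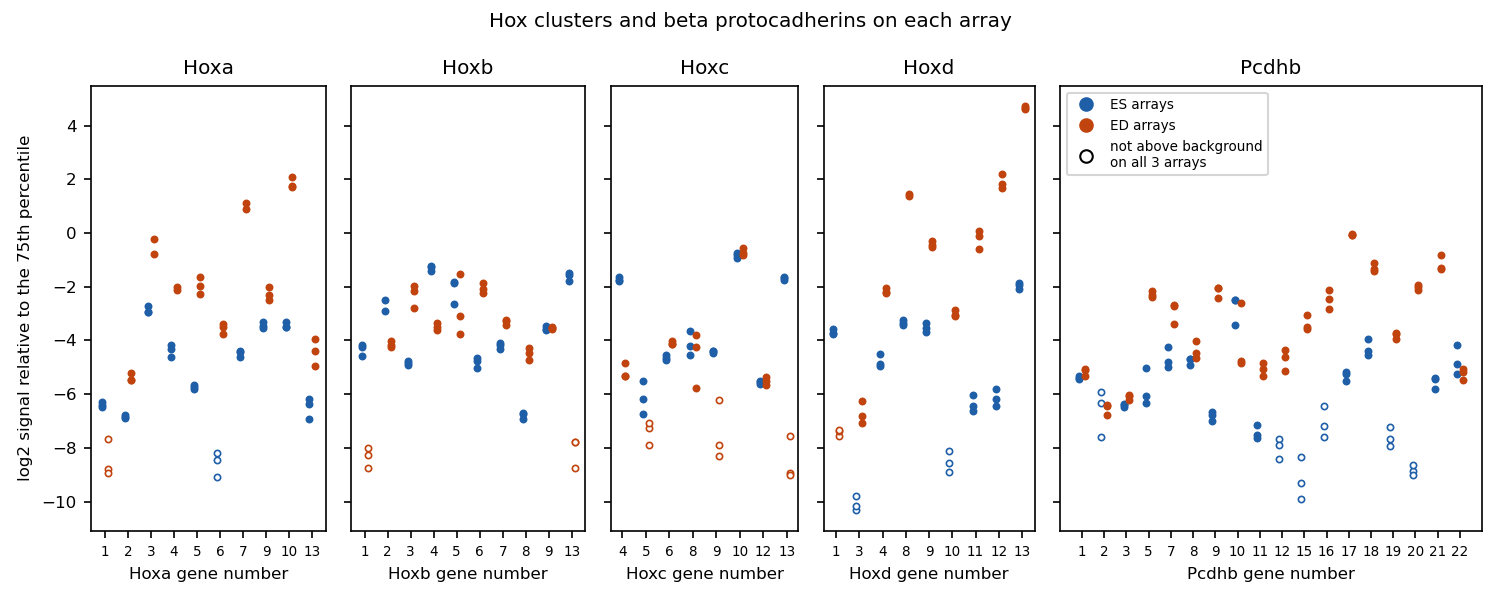
Level of each tested Hox and Pcdhb gene on each array (vertical axis, log2 signal relative to the 75th percentile) by gene number (horizontal axis), ES in blue and ED in red. Open circles stand for groups in which fewer than 3 arrays were well above background. ED lies above ES for Hoxd3 to Hoxd13, for most Hoxa genes and for Pcdhb genes from 11 to 21, and below ES for Hoxb13 and Hoxc13.

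On the X chromosome 2 families of testis and placenta genes fell as blocks. Of 26 Rhox homeobox genes 21 were lower and 1 higher (median -4.83, or -4.80 at the bounds), including a run of 13 neighbors, which begins with Gm9, that were all lower. Rhox6 had 2.69, 2.64 and 2.64 in ES and -6.49, -6.77 and -6.23 in ED, a change of -9.15 ± 0.76 (adjusted p = 8.51e-08), and Rhox9 fell by at least 1017-fold. Rhox11 was the 1 rise (1.06), with 1 usable ES array. Of 9 Xlr genes 9 were lower (median -7.41, or -6.39 at the bounds), within a run of 14 neighbors with Zfp185, Pnma5 and Pnma3. Xlr3a fell by at least 597-fold and Xlr4b changed by -9.26, with 1 ED array above background. Many Rhox and Xlr genes are near-identical copies whose probes may share signal, so the count of genes is uncertain. Zscan4c, Zscan4d and Zscan4f, which mark a rare early-embryo-like state of stem cells, changed by -9.37, -9.60 and -9.47, and share sequence in the same way.

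In the list of X and Y linked genes 7 of 8 fell and 0 rose (median -2.45, or -1.49 at the bounds). Eif2s3y, a translation factor gene, had 3.44, 3.32 and 3.29 in ES and 0.78, 0.73 and 0.81 in ED. It was well above background in both groups and fell by 2.58 on the log2 scale (SE 0.15, adjusted p = 9.95e-09). Ddx3y and Uty fell by 1.22 and 1.76, and Kdm5d by at least 6.67-fold. Xist, the RNA that silences an X chromosome, had a change of -0.91, with 1 ED array above background, that did not pass the test (adjusted p = 0.185). Of 10 long non-coding RNAs 2 were higher and 2 lower, with a median of -0.58 that becomes 0.07 with median scaling. Neat1, the scaffold of paraspeckles, rose by 2.94 and Airn by 1.72, Meg3, an imprinted RNA, fell by at least 58.2-fold, and Malat1 (-0.42) was not counted. Of 22 Y-linked genes tested 10 were higher and 8 lower, and since some of these sit in families of near-identical copies the count is uncertain.

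Beyond the lists, the 15 greatest rises and 15 greatest falls among genes above background on all 6 arrays spanned 8.51 to 10.34 and -10.15 to -13.14 on the log2 scale. Osr1, a zinc finger factor of intermediate mesoderm and connective tissue, had -6.19, -5.88 and -5.94 in ES and 3.69, 3.59 and 3.77 in ED. It rose by 9.69 ± 0.33 (adjusted p = 1.8e-11). The Wnt pathway regulators Dkk2 and Rspo2 rose by 9.25 and 8.54, the caveolar coat protein Cavin2 by 9.61, the urea transporter Slc14a1 by 9.42, the tetraspanin-like Tm4sf1 by 8.92, xanthine dehydrogenase (Xdh) by 8.66 and matrix Gla protein (Mgp), which blocks calcification, by 8.57. Of the 15, 5 have no symbol in the table used, among them transcripts NM_053153 (10.13) and NM_008328 (9.74). Of the falls, Pigp, a subunit of the enzyme that starts the synthesis of glycolipid anchors, had 7.83, 7.85 and 7.94 in ES and -4.19, -3.98 and -3.90 in ED. The change was -11.89 ± 0.23 (adjusted p = 7.65e-14). The glucose transporter Slc2a3 changed by -11.56, the X-linked Bex1 and Bex4 by -11.48 and -11.57, the Oct4 target Fbxo15 by -11.41, Trap1a by -10.76, Khdc3 by -10.44 and the small heat shock protein Hspb1 by -10.36.

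Detection itself was uneven. Genes detected on all 3 arrays of 1 cell type and on none of the other numbered 200 in ED and 2014 in ES, with no test. The dimmest log2 signal that counts as well above background, before scaling, was 4.37 to 4.54 on ED arrays and 3.55 to 4.31 on ES arrays. A dim signal can therefore pass on ES and not on ED, and the share of this in the counts was not tested. Among the brightest, Itgbl1, an integrin-like secreted protein seen in ED alone, was at least 2647-fold higher (adjusted p = 1.56e-12). It was followed by the transcript NM_013793 (at least 1326-fold), Gpr149 (1059-fold) and Evi2a (871-fold), and Casp1, the inflammatory caspase, was at least 655-fold higher. In ES alone, Rps4l, a copy of a ribosomal protein gene, was at least 7107-fold higher (adjusted p = 9.56e-14), Lama1, a basement membrane laminin, at least 3275-fold, Grb7, an adaptor protein, at least 2343-fold, Pramel13 at least 2164-fold and Laptm5 at least 2105-fold.

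Changes were spread over all chromosomes with modest differences between them. Y aside, the share of lower genes was greatest on X (36.4%), chromosome 11 (35.9%) and chromosome 4 (35.6%), and the share of higher genes on chromosome 15 (22.1%). Runs of neighbors with the same direction included, beside those above, 9 higher genes around Ifnz on chromosome 4, 10 lower genes around Defa21 on chromosome 8 and 8 lower zinc finger and other genes around Zfp982 on chromosome 4, all of families with similar copies. Among kinds of transcript, mRNA accessions were lower in 31.3% and higher in 14.9%, non-coding RNA accessions in 25.7% and 15.2%, RIKEN cDNAs in 17.1% and 16.4%, and probes for ultraconserved regions in 13.9% and 7.28%. Of the 7111 dimmest genes above background on all 6 arrays 9.23% were higher and 16.7% lower, and of the 7111 brightest 19.3% and 14.8%.

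The same cell types differed in the same way on the irradiated arrays. None of these enters the difference between ED and ES, but all enter the estimate of the spread by which probes were called. Within either irradiated pair the cell types share no scan time, so scan time and cell type cannot be told apart there either. Of 11704 probes called here and measured 15 min after IR, 95.4% had the same sign in EDRE minus ESRE and 78.4% exceeded 2-fold, where 46% of all probes tested did. At 4 h, 98.1% of 11780 had the same sign and 84.6% exceeded 2-fold, against 52% of all. Probes over 2-fold in the opposite direction numbered 85 and 13. Replicates 2 and 3 of EDRE were dim arrays, with 24.4% and 23.8% of spots marked as outliers, and without them the first share of the same sign was 97.2%. Without replicate 1 of ESRL, also dim, the second was 98.7%. Of the listed genes counted, 266 of 273 measured kept their sign at 15 min and 275 of 281 at 4 h. The naive pluripotency list had medians of -9.06 and -8.75 in the irradiated pairs, the epithelial list -7.58 and -8.66 and the fibroblast list 4.37 and 4.00.

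**Figure D5:**
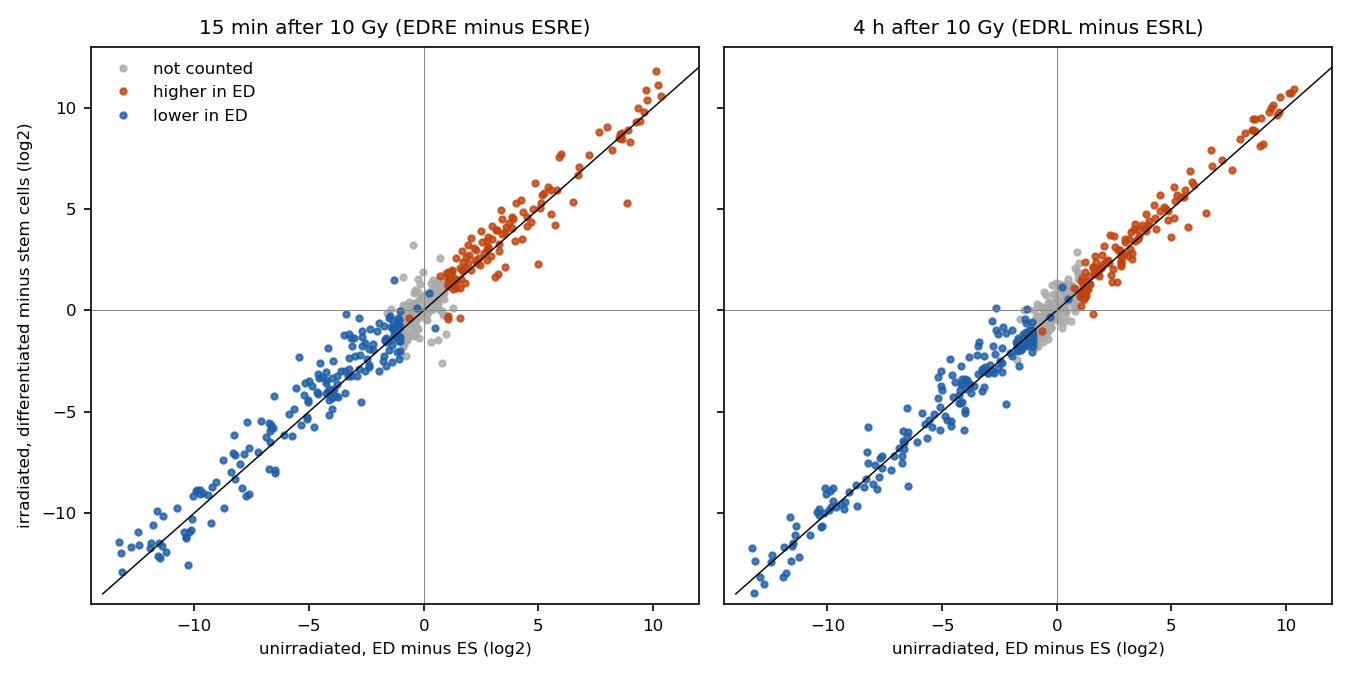
Log2 difference between differentiated and stem cells without irradiation (horizontal axis) and on other arrays 15 min (left) or 4 h (right) after 10 Gy (vertical axis), for the 495 named genes tested, of which 474 and 486 have a value. The line is equality. Genes counted higher (red) or lower (blue) lie along the line in both panels, with few in the opposite quadrants.

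All ES arrays had the same scan time and all ED arrays another, so that scan time and cell type cannot be told apart within the 6 arrays. Replicate 3 of ESRE was scanned with ED. Of 265 listed genes counted that have a value against it, 263 kept their direction and 249 also exceeded 2-fold, although that array was irradiated. With scan time as a random block over all 18 arrays, 230 of 280 listed genes counted kept an adjusted p under 0.05.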

How the data were processed

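Per the labels, Cy3-labeled cRNA of each sample was hybridized to 1 Arraystar array on the Agilent platform, with no pooling. The deposited scanner files give gProcessedSignal, an intensity from which Agilent Feature Extraction had subtracted background, and the file headers name version 10.7.3.1 and the mm9 build. The table of values that the authors deposited holds 30133 probes as log2 of the same processed signal, floored at 5 signal units and centered close to the median of each array, as found by setting it against the scanner files, and was used as an alternative.

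Of 39448 spots, 1417 control and 200 negative spots were left out, as were spots marked as outliers, which leaves 37246 probes. Signals were divided by the 75th percentile of the array and put on the log2 scale. The probes that stood well above background on every array of ED or of ES were tested with limma 3.58.1 (lmFit and eBayes, R 4.3.3). The fit took in all 18 arrays, whose 6 groups share an estimate of the spread, so that a group with 1 usable array is assumed to vary like the others. Calls needed Benjamini-Hochberg adjustment over all probes tested, an adjusted p under 0.05 and a change over 2-fold. A gene was counted where any of its probes passed, and its values are those of its brightest probe. Accessions were named through RefSeq (GRCm38.p6), which matched 22216 of 22522 probes with mRNA accessions. Where no array of a group was well above background, the fold is a bound, taken on each array against the higher of the probe's own signal and the dimmest signal that still counts as well above background. The genes named were the listed genes, the 15 highest and 15 lowest changes among probes above background on all 6 arrays without overlap, and the 8 brightest genes detected in only 1 cell type in each direction. Families and neighbor runs were added after their values were seen. The members and lists were chosen with earlier results of these data known. Of 551 listed genes 540 were on the array and 471 tested, 13 were not well above background and 56 had no usable spot in a group. On simulated data, 46% of probes changed by 1.5 and 89% of those changed by 3 on the log2 scale were recovered, with 17 false calls of 28436 unchanged probes. The simulated noise was drawn independently for each array with no effect of scan time, so these rates do not cover error that comes with scan time. Replicate numbers were not taken to pair the samples. Deviations of samples with the same number correlated with r of -0.0619, 0.172 and 0.217. With no value for samples known to be paired, these do not settle whether same-numbered samples were prepared together. Some items are not reported here. Alternatives were other scaling, background correction, filters, the deposited table, the methods' t-test, leaving out each replicate, the replicate block and the scan time as a block.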

Additional observations from a re-analysis of the deposited data

Results flagged for a closer look

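The direction of the cell type difference turned on irradiated arrays for a few listed genes whose groups did not overlap on either side, and these differences were not tested. Lyz2, a lysozyme of myeloid cells, had a log2 difference of -0.48 without irradiation, against 3.21 at 15 min and 0.74 at 4 h after IR. It was above background on 1 of 3 ED arrays (mean level -7.32), so that the first value lies near the background. Snrpd1, a core spliceosome protein, had 0.37 without irradiation and -0.32 at 4 h. Dpf2, a subunit of the BAF complex, had -0.39 without irradiation and 0.98 at 15 min. Both values at 15 min rest on EDRE, of which 2 arrays were dim.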

How the results depend on the processing

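All listed, top and detected genes that were tested number 495, of which 302 were counted. The fit limited to probes above background on all 6 arrays holds 231 of these, since genes below background in a cell type drop out of it, and with scan time as a random block 254 kept their call. The counts of 3902 higher and 6998 lower genes became 6574 and 4543 from the deposited table, and 6971 higher with median scaling. The lower genes numbered 4655 with scan time as a random block, where 2817 were higher, and 3907 among probes above background on all 6 arrays. Without each replicate in turn the counts ranged from 3659 to 4003 higher, 6458 to 7166 lower and 10135 to 11161 in either direction. With the replicate number as a block, although it was not taken to pair these samples, 3851 were higher, 6906 lower and 10750 either. The methods' t-test gave 3859 higher and 6758 lower unadjusted, and 3801 and 6582 after Benjamini-Hochberg adjustment. Probes over 2-fold in the same direction 15 min after IR numbered 6071 of 8708 called (69.7%) with normexp background correction, against 9180 of 11704 (78.4%). The median of all genes turned to 0.46 with median scaling and 0.23 after quantile normalization. With median scaling the medians of these lists changed sign: neural (0.26), bone and cartilage (0.63), keratinocyte (0.02), integrins (0.31), splicing (0.43), cholesterol (0.30), replication and mitosis (0.31), damage and apoptosis (0.25), PP2A (0.55) and long non-coding RNA (0.07). Quantile normalization turned bone and cartilage (0.59) and integrins (0.33). Against ESRE replicate 3, the sign turned for Sp7 (1.78), Smarcd2 (-0.143) and Ppp2ca (-0.152). The cause of these shifts was not tested beyond the scaling itself. Dim spots limit what could be tested, since 3801 probes were above background on no array.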

Other observations

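Neighboring genes beyond the named families also moved in runs. On chromosome 2, 11 neighbors from Dusp2 to Mall were all lower (median -3.47), and on chromosome 9, 11 from Mpzl2 to Dscaml1 (median -4.02). On chromosome 4, 8 neighbors around Rasef were lower with a median of -8.03. No test was made of these runs, which were found by looking through the counted genes in order.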
